A study of Mus musculus with 3 samples.

Results

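The comparison of the NaV1.2 C-terminus with EGFP at 20 mM glucose rests on the 2 arrays labelled high glucose, out of 3 arrays in the series. Each array had 21765 gene spots. A spot was kept when raw minus background intensity was above the 95th percentile of the empty spots in both channels of both high glucose arrays. That left 19836 spots, or 91.1%, of which 16842 carried a gene name and covered 15633 genes. The kept spots are described here by gene family, with the remaining trend of the log2 ratio with intensity removed.

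N1E-115 is a mouse neuroblastoma line. At 24 h after plating the cells received 2 µg of plasmid, either pEGFP-C1, which encodes the green fluorescent protein EGFP alone, or pEGFP-NaV1.2CT-Flag, which encodes EGFP fused to 229 amino acids from the C-terminal end of mouse NaV1.2, a sodium channel. Total RNA was taken 48 h after transfection, and RNA of 3 dishes was pooled. Both high glucose arrays held EGFP RNA in the Alexa555 channel and fusion RNA, called NaV1.2CT here, in the Alexa647 channel. The third array held the same pair of RNAs at 5 mM glucose. The glucose levels come from the sample labels and the design text, while the protocol for growing the cells gives low glucose DMEM throughout. The control cells, too, were given an EGFP plasmid. The share of cells that took up plasmid was not known, and in pooled RNA a change in the number of cells and a change in RNA per cell cannot be told apart. Since the dyes were not swapped, an effect of the dye on a spot and an effect of the plasmid cannot be told apart. Separate cultures are not stated for the 2 arrays. Their p-values therefore cover the spread between these arrays alone, and that spread may be technical.

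NaV1.2, encoded by Scn2a, is a voltage-gated sodium channel of brain neurons that starts and carries the action potential. Its cytoplasmic C-terminus binds calmodulin and fibroblast growth factor homologous factors and takes part in channel inactivation. For a related calcium channel, CaV1.2, a C-terminal fragment is known to enter the nucleus and act on transcription. Excitable cells set their firing through the balance of sodium, potassium and calcium channels with ligand-gated receptors, and these families are therefore described first.

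The signal was well above background, and the log2 ratios were small. On replicate 1 the median raw minus background intensity of the kept spots was 1356 in the EGFP channel and 1097 in the NaV1.2CT channel. On replicate 2 it was 1271 and 1008. The SD of the log2 ratio over kept spots was 0.10 on replicate 1 and 0.14 on replicate 2. For the GAPDH control spots, which carry a repeated probe, the SD was 0.05 and 0.09, against 0.09 and 0.12 for gene spots of the same intensity range. The markers listed for neuroblastoma had 24 spots on the array, all kept, with a median brightness at percentile 59.2 of gene spots. The glial list lay at percentile 76.2, the fibroblast list at 64.8, the liver and muscle list at 75.6 and the blood list at 31.0, so brightness did not set the neuroblastoma markers apart. Chromogranin A, Chga, was at percentile 99.2 and tyrosine hydroxylase, Th, at 83.0, but the neuronal tubulin Tubb3 was at 20.2 and the liver gene Alb at 92.1. Values below therefore belong to the spot of that name. The number of arrays limits the precision.

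Over all kept spots, 912 (4.60%) passed limma's test at an adjusted p of 0.05, with 372 (1.88%) higher and 540 (2.72%) lower with NaV1.2CT. Every one of the 912 had the same sign on both arrays. With 2 arrays, a spot of opposite signs could not pass at this threshold, so the test itself sets this. At an unadjusted p of 0.05 the number was 4477. The count depended on the processing: 7449 spots passed with loess over the whole array, 9640 with median centring, and 30 with no filter on dim spots, with none of the 912 among these 30. The median size of a passing change was 0.28 on the log2 scale, a fold of 1.21, and the extremes were 0.61 and -0.80. Irrespective of the test, 34.5% of kept spots were above 0 on both arrays and 33.7% below 0 on both, 68.3% together. Spots past 0.1 in size on both arrays made up 6.58% on the higher and 8.12% on the lower side. Log2 ratios of the 2 arrays had a Pearson correlation of 0.56 across spots, which share the print position, the dye and the clone on the slide.

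**Figure D1:**
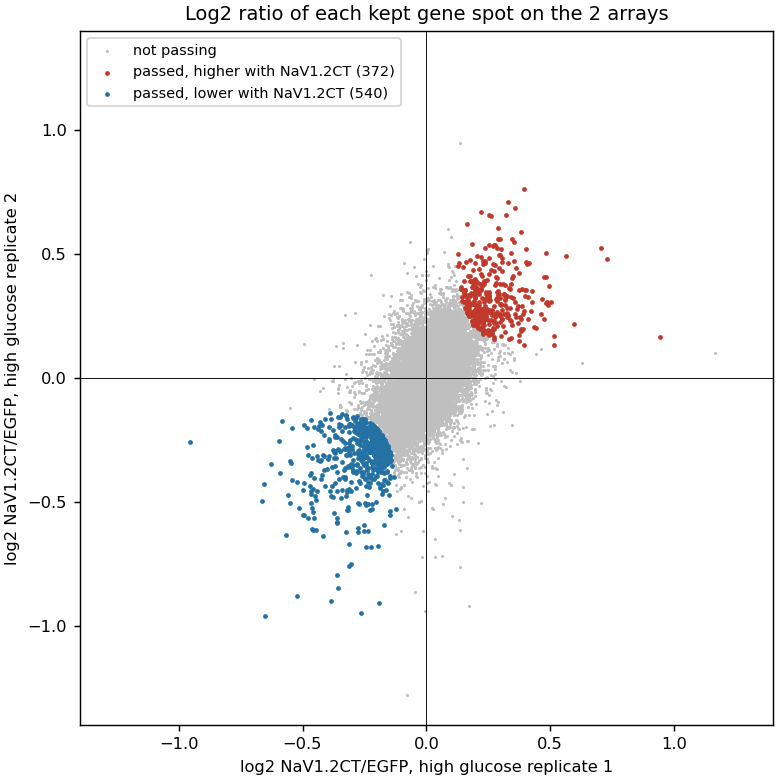
Log2 ratio of NaV1.2CT over EGFP of each of the 19836 kept gene spots on high glucose replicate 1 (x axis) and replicate 2 (y axis). The 372 spots that passed higher are red and the 540 that passed lower are blue, and no passing spot reached a mean of 1 in either direction.

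The trend with intensity was small after the loess within print blocks, and its removal moved the dim end and the bins from 12 to 14 most. Intensity is given as A, the mean log2 intensity of both channels. Below an A of 8 the median log2 ratio moved from -0.016 to -0.00051 on replicate 1 and from -0.015 to -0.0023 on replicate 2. Between 13 and 14 it moved from -0.026 to -0.016 and from -0.020 to -0.011. Before removal 482 spots passed higher and 800 lower, and 371 of the 372 and all 540 were among them. Passing spots were dim more often than kept spots as a whole: 50.3% of the higher and 49.8% of the lower spots had an A under 8, against 12.3% of all kept spots. Among spots with an A of 14 or more, 5.51% passed higher and 1.29% lower.

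**Figure D2:**
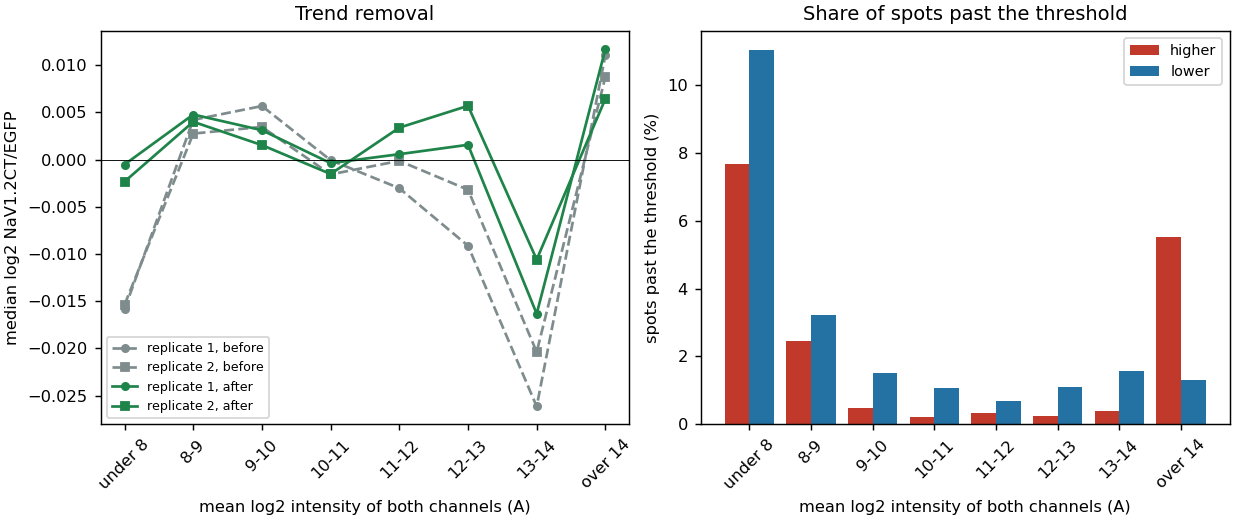
Left, median log2 ratio of NaV1.2CT over EGFP in bins of A, the mean log2 intensity, before (grey, dashed) and after (green) removal of the trend on each high glucose array. Right, percent of spots in each bin that passed higher (red) or lower (blue): both shares were highest below an A of 8, where 7.67% passed higher, and from 14 on they were 5.51% and 1.29%.

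The place of a spot within its print block moved with the log2 ratio. The array was printed in 48 blocks of 22 rows and 22 columns, and the same place in all blocks is called a print position here. Medians of 449 print positions had a correlation of 0.78 between the 2 arrays, and of 0.57 between each of them and the low glucose array. Print position accounted for 6.09% of the variance of the log2 ratio on replicate 1 and 13.6% on replicate 2. Row 7 stood out, with a median of 0.05 on replicate 1 and 0.11 on replicate 2, and with 85 of its 811 kept spots (10.5%) passing higher and 7 passing lower. At row 5, column 14, all 18 kept spots were above 0 on both arrays and 15 passed higher, with medians of 0.26 and 0.42. At row 13, column 22, all 13 kept spots were above 0 and 8 passed higher. Because genes of a family were often printed together, each family below is set beside the other genes at the same print positions. The part of print position in the family results was not tested.

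**Figure D3:**
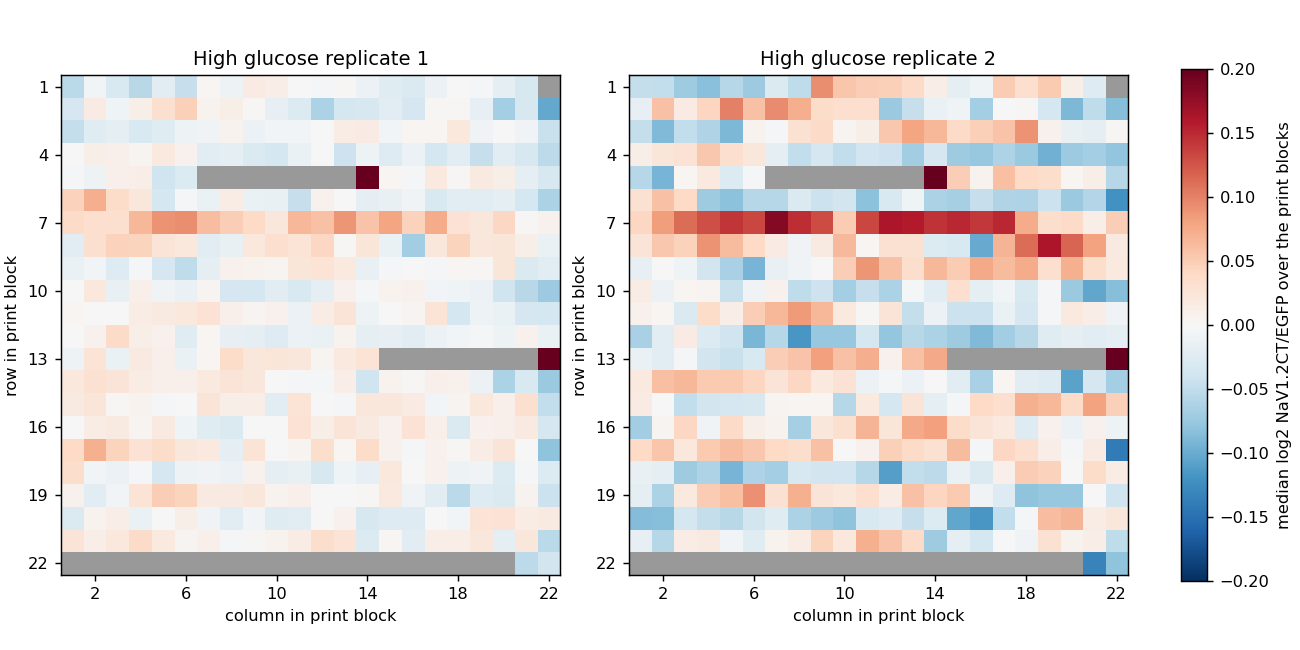
Median log2 ratio of NaV1.2CT over EGFP at each print position, by row and column of the print block, on the 2 high glucose arrays. Grey positions had under 10 kept spots. Colours stop at 0.20 in either direction. Row 7 was high on both arrays, and the position at row 5, column 14 was highest, at 0.26 and 0.42.

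Sodium channel spots gave no passing change. The family had 15 kept spots of 13 genes, with 5 above 0 on both arrays, 2 below and a median of -0.012, against 0.0019 over all kept spots. The sodium channel median was 0.024 with loess over the whole array, and the median difference from other genes at the same print positions was 0.022. The single Scn2a spot was at 0.12 on replicate 1, 0.18 on replicate 2 and 0.09 on the low glucose array, above 0 on every array. Its mean of 0.15 did not pass (limma adjusted p 0.119). The files describe this spot as a 3' end, and its overlap with the transfected stretch is unknown here. The other extremes were Scn4a, the skeletal muscle channel, at 0.07 and 0.33 (adjusted p 0.107), and Scn10a, a channel of sensory neurons, at -0.11 and -0.22 (adjusted p 0.105).

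Potassium channel spots lay low more often than high. Of 71 kept spots of 65 genes, 41 were below 0 on both arrays and 17 above, with a median of -0.039 on replicate 1 and -0.049 on replicate 2. On both arrays 15 spots were below -0.1 and 3 above 0.1. None passed higher and 5 passed lower, 7.04% of the family. Among all kept spots 1.88% passed higher and 2.72% lower, with 34.5% above 0 on both arrays and 33.7% below. Kcne2, an accessory subunit, was at -0.32 and -0.62 on the 2 arrays and fell by 0.47 in the mean (SD 0.21, adjusted p 0.00622). The beta subunit Kcnab2 was at -0.17 and -0.35 (adjusted p 0.0295). The pore subunit Kcnd1 was at -0.17 and -0.30 at the spot that passed (adjusted p 0.0358), and at 0.07 and -0.01 at its other spot, so the 2 Kcnd1 spots did not move together. Of the 71 spots, 50 were printed in rows 3 and 4. Other genes at the positions of the potassium channels had a median of -0.051, and the median difference from them was 0.0024 for the mean of the arrays, -0.0087 on replicate 1 and -0.017 on replicate 2. Of the 71 spots, 34 lay below these neighbours. With position medians subtracted, 2 of the 71 spots passed lower. On the low glucose array the family median was -0.0035.

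Calcium channel spots also lay low, and part of this remained beside their neighbours. Of 26 kept spots, 17 were below 0 on both arrays and 4 above, with medians of -0.029 and -0.092. Other genes at the same positions had medians of -0.020 and -0.063, and 19 of the 26 spots lay below them in the mean of the arrays. The auxiliary subunit Cacnb1 was at -0.23 and -0.18 (adjusted p 0.0479) and was the only spot that passed lower. Rows 3 and 4 held 17 of the 26 spots, and with position medians subtracted 1 of the 26 passed higher and 0 lower. A spot of Cacnb4, another auxiliary subunit, was at 0.20 and 0.35 (mean 0.28, adjusted p 0.0212), while its 3 other spots had means from -0.06 to 0.02. The higher Cacnb4 spot was in print row 7, and with median centring it was at -0.22 and passed in the opposite direction (adjusted p 0.00361).

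Ligand-gated receptor spots, which convert transmitter binding into current, had 28 of 63 below 0 on both arrays and 15 above. The median was -0.050, against -0.038 for other genes at the same positions, and it was 0.024 with median centring in place of loess. Gabra5, a subunit of the GABA-A receptor, was at 0.39 and 0.36 and rose (adjusted p 0.00492). Gria2, an AMPA receptor subunit, was at 0.38 and 0.17 and rose (adjusted p 0.0282). Gabrd, the delta subunit of the GABA-A receptor, was at -0.20 and -0.22 and fell (adjusted p 0.0421), as did the serotonin receptor subunit Htr3b at -0.20 and -0.21 (adjusted p 0.0480). The 19 chloride channel spots had 1 passing lower, and the 25 spots of TRP, acid-sensing and cyclic nucleotide channels had 1 passing higher.

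Among G protein-coupled receptors, transmitter and peptide receptors had 42 of 88 spots below 0 on both arrays and 23 above. Their median was -0.038, against -0.032 for other genes at the same positions, and 0.00025 with median centring. Tacr1, the substance P receptor, was at 0.35 and 0.47 and rose (adjusted p 0.00433). The dopamine receptor Drd4 was at 0.22 and 0.38 at a bright spot with an A of 15.1 (adjusted p 0.0161). The adenosine receptor Adora2a was at 0.19 and 0.31 (adjusted p 0.0277). Its spot is in print row 7, and with position medians subtracted it was at 0.14 and did not pass (adjusted p 0.125). Gabbr1, a subunit of the metabotropic GABA receptor, was at -0.21 and -0.25 and fell (adjusted p 0.0304), while its other spot was at -0.09 and 0.14. Orphan and adhesion receptors had 6 of 66 spots passing lower and 0 higher, and 6 and 0 again with position medians subtracted. Of all kept spots, 2.72% passed lower and 1.88% higher. The median of the orphan and adhesion receptors was 0.0037 and kept its sign under 4 of 13 alternatives. For the 54 spots of G protein subunits and RGS proteins no spot passed.

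Protein phosphatase subunits had 35 of 66 spots above 0 on both arrays and 18 below, with a median of 0.036 on replicate 1 and 0.033 on replicate 2. Other genes at the same positions had medians of 0.0056 and 0.019. None passed lower and 5 passed higher, or 7.58% of the family, where 1.88% of all kept spots passed higher. With position medians subtracted, 2 passed higher and 0 lower. Ppp3ca, the catalytic subunit of the calcium-activated phosphatase calcineurin, was at 0.20 and 0.35 (adjusted p 0.0216). Ppp1cb, a catalytic subunit of protein phosphatase 1, was at 0.26 and 0.66 (adjusted p 0.0123), but it was printed at row 5, column 14 and stood at 0.12 once that position's median was subtracted (adjusted p 0.274). Ppp2r5d, a regulatory subunit of protein phosphatase 2A, was at 0.20 and 0.32 at the spot that passed (adjusted p 0.0246), and its 2 other spots did not pass, with means of -0.03 and 0.09. The protein tyrosine phosphatases had 20 of 46 spots below 0 on both arrays and 10 above, with 1 passing higher and 2 lower.

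Secreted signals moved at single spots in both directions. In the Wnt pathway, which steers cell fate and axon growth, 21 of 43 spots were above 0 on both arrays and 10 below. The ligand Wnt8a was at 0.48 and 0.50 and rose (mean 0.49, SD 0.013, adjusted p 0.00206). Wnt11 was at 0.29 and 0.56 and rose (adjusted p 0.00774), and Wnt1 was at -0.22 and -0.23 and fell (adjusted p 0.0334). In the TGF-beta and BMP pathway 2 of 49 spots passed higher and 3 lower. The ligand Tgfb2 was at -0.38 and -0.29 (adjusted p 0.00784), the receptor Tgfbr1 at -0.20 and -0.37 (adjusted p 0.0210) and the receptor Tgfbr2 at -0.19 and -0.44 (adjusted p 0.0229). Smad4, the shared signal carrier of the pathway, was at 0.28 and 0.38 and rose (adjusted p 0.00830). The other Tgfbr2 spot, at -0.09 and -0.15, did not pass. The median of this pathway was -0.017 and changed sign under 4 alternatives, among them 0.034 with loess over the whole array.

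Among adhesion and guidance families, passing spots made up 4.55% of integrins, 7.5% of collagens and laminins and 4.76% of axon guidance genes. Cadherins and protocadherins had 2.94%, and all kept spots 4.6%. Integrins, the receptors for extracellular matrix, had 11 of 22 spots below 0 on both arrays and 3 above, with medians of -0.019 and -0.081. Itgav was at -0.35 and -0.30 and fell (adjusted p 0.00822), while its other spot was at -0.09 and -0.07. Collagens and laminins had 3 of 40 spots passing higher and none lower, with Col6a1 at 0.40 and 0.33 (adjusted p 0.00556). Axon guidance genes had 3 of 63 spots passing higher and none lower. Once position medians were subtracted, integrins had 1 spot higher and 2 lower, collagens and laminins 3 higher and none lower, and axon guidance genes 2 higher and 1 lower. The semaphorin Sema3c was at 0.27 and 0.53 (adjusted p 0.00924), with its other spot at 0.12 and 0.11. The receptor Ephb2 was at 0.13 and 0.46 (adjusted p 0.0463). The semaphorin receptor Nrp2 was at 0.19 and 0.21 in print row 7 (adjusted p 0.0492), and at 0.09 with position medians subtracted (adjusted p 0.310).

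In the cytoskeleton, actins and myosins with their partners had 28 of 62 spots above 0 on both arrays and 15 below. The passing spots were the tropomyosins Tpm1, at 0.22 and 0.41 (adjusted p 0.0144), and Tpm2, at 0.31 and 0.33 (adjusted p 0.00785). Both were printed in row 7, and 2 spots of the family also passed higher with position medians subtracted. Stmn3, a stathmin family regulator of microtubules, was at 0.38 and 0.24 (adjusted p 0.0132), also in row 7, and at 0.20 with position medians subtracted (adjusted p 0.0882). The kinesin light chain Klc2 was at -0.54 and -0.34 and was the single passing spot of 73 for kinesins and dyneins (adjusted p 0.00476).

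Transcription factor families had more lower than higher passing spots, as did all kept spots, with 2.72% lower and 1.88% higher. Zinc finger proteins, the largest of these families, had 4 of 267 spots passing higher and 10 lower. Homeobox factors had 9 of 120 spots passing lower and 0 higher, with 49 below 0 on both arrays and 31 above. The median was -0.024, against -0.032 for other genes at the same positions, and the median difference from those genes was 0.011. Lhx5, a factor of forebrain development, was at -0.47 and -0.39 (adjusted p 0.00317), and Pax8 was at -0.32 and -0.36 (adjusted p 0.00694). Nkx1-2 was at -0.19 and -0.42 at the spot that passed (adjusted p 0.0214), and at -0.05 and -0.09 at the other. With position medians subtracted, 8 homeobox spots passed lower and 2 higher.

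Nuclear receptors, which are ligand-controlled transcription factors, had 26 of 49 spots below 0 on both arrays and 13 above, with a median of -0.030 on each array. Other genes at the same positions had medians of -0.029 and -0.045. The median difference from them was -0.037 for the mean of the arrays, -0.016 on replicate 1 and -0.051 on replicate 2. The estrogen-related receptor Esrrb was at -0.46 and -0.32 (adjusted p 0.00552). Nr3c1, the glucocorticoid receptor, was at -0.37 and -0.29 at a dim spot (adjusted p 0.00784), and at 0.01 and 0.12 at its other, bright spot. In the forkhead and Sox families Foxj1, a regulator of motile cilia, was at 0.38 and 0.59 and rose (adjusted p 0.00341), and 3 of the 61 spots passed lower.

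Mediator, TAF and RNA polymerase subunits had 41 of 88 spots above 0 on both arrays and 22 below, with a median of 0.030 that was -0.039 with median centring. Other genes at the same positions had a median of -0.0031. The family had 1 spot passing higher and 3 lower. Taf1, the largest subunit of TFIID, was at -0.33 and -0.40 at a spot with an adjusted p of 0.00556, at -0.15 and -0.30 at another (adjusted p 0.0495), and at 0.0094 and -0.15 at the third. On the low glucose array these 3 spots were at 0.05, 0.05 and 0.04. The 22 histone spots had no passing change, and their medians were -0.00026 and 0.081.

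Splicing factors and hnRNPs had 36 of 70 spots above 0 on both arrays and 15 below. Their medians were 0.024 and 0.057, against 0.0095 and 0.046 for other genes at the same positions. The splicing factor Sf3b5 was at 0.25 and 0.31 and rose (adjusted p 0.0140). Hnrnph2 was at -0.21 and -0.36 and fell (adjusted p 0.0191), and the other 68 spots did not pass. Cytosolic ribosomal proteins had 36 of 90 spots above 0 on both arrays and 24 below, with medians of -0.0030 and 0.036. Rps16 had among the largest changes of all, at 0.71 and 0.52 (mean 0.61, SD 0.13, adjusted p 0.00206). Rpl36a was at 0.24 and 0.47 and rose (adjusted p 0.0130), and Rpl22l1 was at -0.28 and -0.19 and fell (adjusted p 0.0331). Mitochondrial ribosomal proteins had 3 of 69 spots passing higher and 2 lower, with Mrpl40 at 0.42 and 0.27 (adjusted p 0.00855).

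Chaperones had 3 of 76 spots passing higher and 1 lower, with a median of -0.013 that was 0.041 with loess over the whole array and 0.052 with median centring. Cct3, a subunit of the cytosolic folding complex, was at 0.35 and 0.40 at a dim spot (adjusted p 0.00509) and at 0.06 and -0.11 at its other spot. Hspa5, the main chaperone of the endoplasmic reticulum, was at 0.19 and 0.30 at a bright spot described as promoter region and partial coding sequence (adjusted p 0.0288) and at 0.04 and 0.24 at a dim spot that did not pass. SNARE and vesicle proteins had 3 of 92 spots passing higher and 0 lower, with medians of 0.032 and 0.0024. Proteasome subunits had 2 of 42 passing higher and 0 lower, and the 45 RNA helicase spots had none.

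Of 45 cyclin and cyclin-dependent kinase spots 18 were kept, and 3 of these (16.7%) passed higher and 0 lower. Of all kept spots, 1.88% passed higher and 2.72% lower. With position medians subtracted, 1 of the 18 spots passed higher and 1 lower. The cyclin Ccna1 was at 0.20 and 0.49 (adjusted p 0.0191), and the replication factor Cdc45 at 0.22 and 0.42 (adjusted p 0.0148). Both were printed at row 5, column 14, and with position medians subtracted they were at 0.0091 and -0.018. Cdkn2a, the locus of a cell cycle inhibitor, was at 0.20 and 0.46 (adjusted p 0.0204), but at -0.17 with median centring, where it passed lower (adjusted p 0.0289). Among replication, centromere and cohesion proteins 2 of 84 passed higher and 3 lower. Orc2, of the origin recognition complex, was at -0.35 and -0.41 (adjusted p 0.00476), and the cohesion acetyltransferase Esco2 was at -0.31 and -0.45 (adjusted p 0.00598).

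Solute carriers, which move metabolites and ions across membranes, were the second largest named family and had 17 spots passing lower. Of 223 kept spots of solute carriers outside the mitochondrial group, 106 were below 0 on both arrays and 54 above. The family median was -0.021 on replicate 1 and -0.046 on replicate 2, against -0.0043 and -0.024 for other genes at the same positions. In the mean of the arrays, 135 of the 223 spots lay below those. Past 0.1 in size on both arrays were 35 lower and 12 higher spots. The test called 5 higher and 17 lower, together 9.87% of the family, where it called 4.6% of all kept spots. Slc15a3, a peptide and histidine transporter, was at -0.45 and -0.48 (mean -0.46, SD 0.020, adjusted p 0.00216). The sulfate transporter Slc13a1 was at -0.25 and -0.62 (adjusted p 0.0130), and the potassium chloride cotransporter Slc12a4 at -0.42 and -0.39 (adjusted p 0.00351). The amino acid transporter Slc7a2 was at 0.17 and 0.32 at the spot that passed (adjusted p 0.0348) and at -0.12 and -0.18 at its other spot. Slc38a4, another amino acid transporter, was at 0.23 and 0.25 at the spot that passed (adjusted p 0.0250) and at -0.05 and -0.03 at its other spot. The zinc transporter Slc39a7 was at 0.27 and 0.20 (adjusted p 0.0291). With position medians subtracted, 2 spots of the family passed higher and 13 lower.

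ABC transporters and ATPase pumps had 1 of 75 spots passing higher and 4 lower. Atp6v0a2, a subunit of the vacuolar proton pump, was at -0.46 and -0.38 (adjusted p 0.00340). The ABC transporter Abca8b was at -0.40 and -0.37 (adjusted p 0.00458), and Abca2 at -0.40 and -0.20 (adjusted p 0.0210). Cytochrome P450 enzymes had 30 of 60 spots below 0 on both arrays and 16 above. Their medians were -0.023 and -0.055, against 0.0047 and -0.0075 for other genes at the same positions. Cyp4f16 was at -0.39 and -0.46 at a bright spot (adjusted p 0.00328), and Cyp2a4 at -0.43 and -0.41 (adjusted p 0.00320). Cyp46a1, which turns over brain cholesterol, was at 0.16 and 0.62 (adjusted p 0.0327), so its sizes differed widely between the arrays. Respiratory chain and ATP synthase subunits had 31 of 72 spots above 0 on both arrays and 20 below. Atp5md, a small subunit bound to the ATP synthase, was at 0.36 and 0.69 at a dim spot of print row 7 (adjusted p 0.00526) and at 0.03 and -0.07 at its other spot.

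Immune families had 34 of 64 interleukin and receptor spots below 0 on both arrays and 16 above, with a median of -0.041 that was 0.026 with median centring and 0.011 with loess over the whole array. The cytokine Il1a was at -0.22 and -0.23 (adjusted p 0.0336). Chemokines and their receptors had 3 of 48 spots passing lower and none higher, with Ccl9 at -0.31 and -0.76 (adjusted p 0.00888). Of all kept spots, 2.72% passed lower and 1.88% higher. Of the 48 spots, 37 were printed in row 4, and with position medians subtracted 1 passed higher and 1 lower. The interferon-induced gene Ifit1 was at -0.38 and -0.48 (adjusted p 0.00341), and at -0.56 on the low glucose array.

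Olfactory receptors had a large share of passing spots, 15 of 130 (11.5%), with 11 higher and 4 lower. These receptors are made in sensory neurons of the nose, and their spots were dim. Of 34 with an A under 8, 11 passed, and over all kept spots of that intensity 18.7% passed. The family was printed in rows 7 and 8, with 117 of its 130 spots, and 10 of the 11 higher spots were in row 7. Its median was 0.023, against 0.042 for other genes at the same positions, and it was -0.057 with median centring. The median difference from those other genes was -0.023. Olfr242 was at 0.41 and 0.46 (adjusted p 0.00277), Olfr1353 at 0.34 and 0.36 (adjusted p 0.00614) and Olfr870 at 0.29 and 0.34 (adjusted p 0.00851), all in row 7. In row 8, Olfr972 was at -0.48 and -0.57 (adjusted p 0.00206), Olfr11 at -0.44 and -0.46 (adjusted p 0.00233) and a spot of Olfr103 at -0.47 and -0.44 (adjusted p 0.00233), while the other Olfr103 spot was at -0.03 and -0.05. With position medians subtracted, 5 spots of the family passed higher and 8 lower, so most passing spots were then lower.

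Across the 64 named families, medians ran from -0.062 for calcium channels to 0.054 for histones. There were 24 families with medians below 0 on both arrays, 24 above 0 on both and 16 with opposite signs. The medians had a correlation of 0.69, over the 66 families with unnamed clones counted, with the median of other genes at the same print positions, and of 0.58 between the arrays. After those other genes were subtracted, family medians ran from -0.039 to 0.045, and 35 of 64 were closer to 0 than before. Over every normalization, filter and array left out that was tried, 19 of the 64 families kept the sign of the median. These included calcium channels, integrins, nuclear receptors, solute carriers, P450 enzymes and protein tyrosine phosphatases on the lower side, and splicing factors, protein phosphatase subunits, actins and myosins, and SNARE and vesicle proteins on the higher side. Among named spots that passed, Cacnb4, Tacr1, Adora2a, Smad4, Col6a1, Sema3c, Cdkn2a and Slc7a2 lay below 0 with median centring in place of loess. With position medians subtracted, the passing spots of Kcnd1, Cacnb1, Adora2a, Gabbr1, Ppp1cb, Ppp2r5d, Nrp2, Stmn3, Rpl22l1, Ccna1, Cdc45, Slc7a2, Abca2 and 2310061D13Rik and the second Taf1 spot no longer passed.

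**Figure D4:**
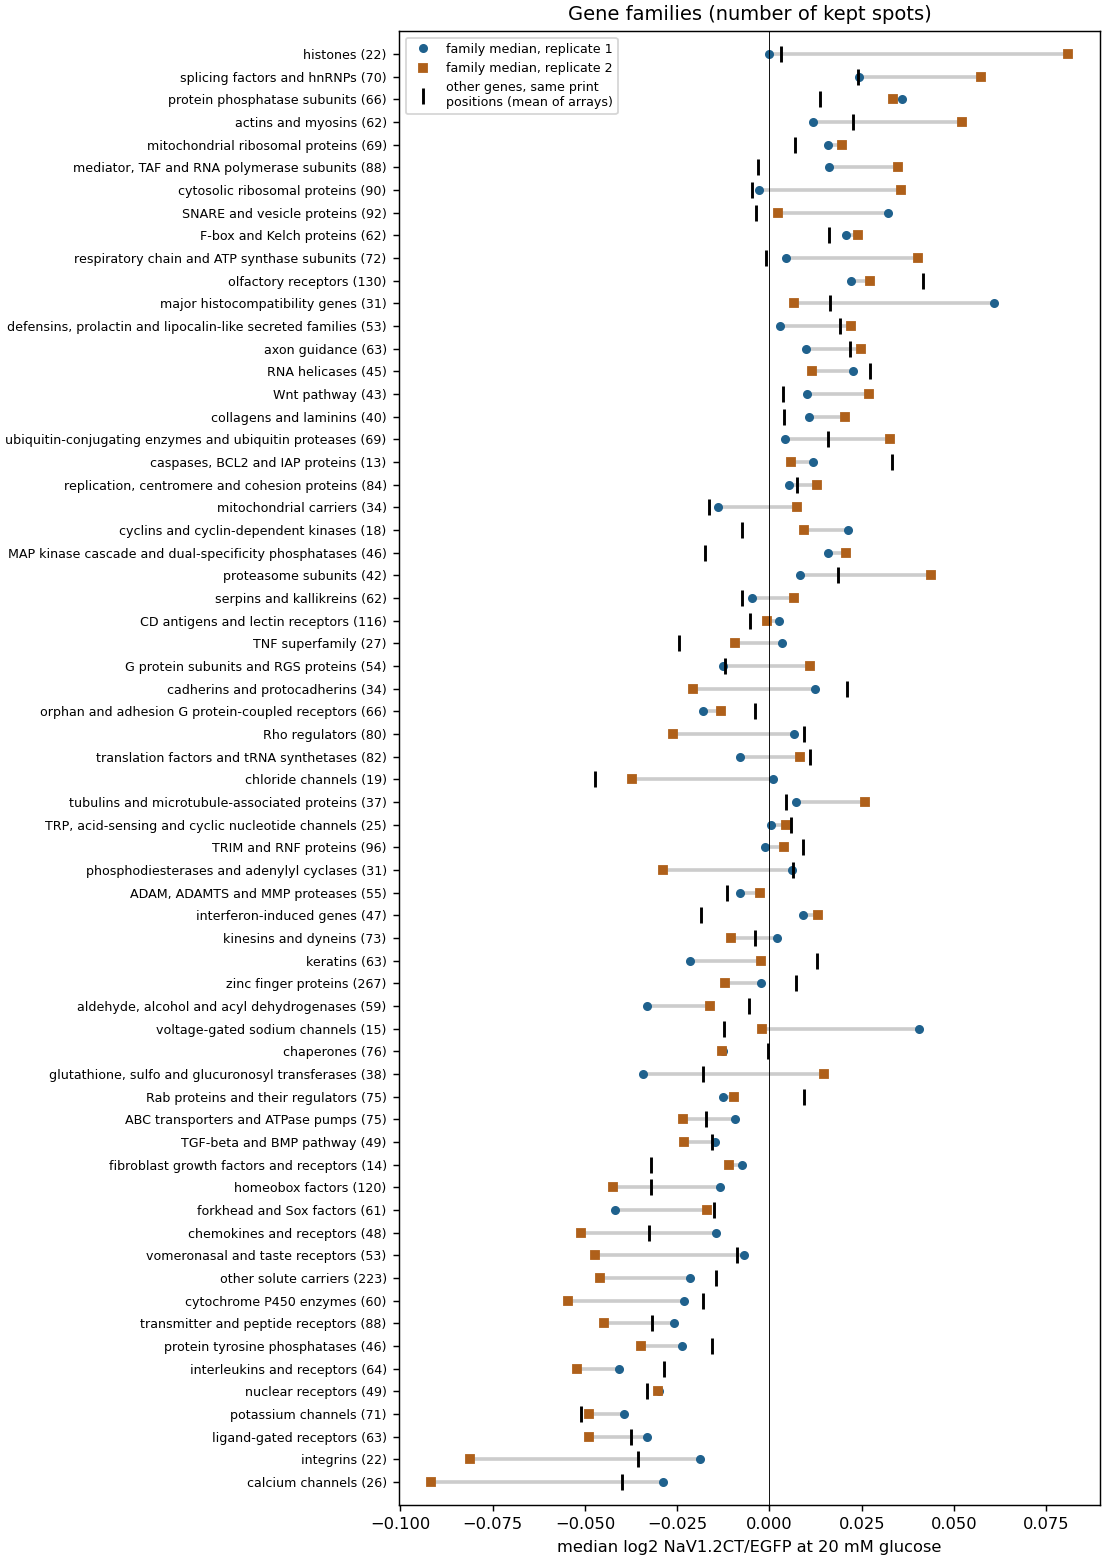
Median log2 ratio of NaV1.2CT over EGFP of each named gene family on replicate 1 (circles) and replicate 2 (squares), with the number of kept spots in brackets. Black ticks mark the median of other genes at the same print positions, for the mean of the 2 arrays. In that mean, potassium channels were at -0.049 and those genes at -0.051.

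The largest changes were at single spots. Rn18s, the 18S ribosomal RNA gene, was at 0.73 and 0.48 (mean 0.61, SD 0.18, adjusted p 0.00206), and its other spot was at 0.09 and 0.40 (adjusted p 0.0759). Stag2, a cohesin subunit, was at 0.40 and 0.76 at a dim spot (adjusted p 0.00476), while its other, bright spot was at 0.02 and 0.04. The clone 2310061D13Rik was at 0.94 on replicate 1 and 0.17 on replicate 2 (adjusted p 0.0414), so its mean rests mainly on replicate 1. On the lower side, the clone 6430628N08Rik was at -0.65 and -0.96 (mean -0.80, SD 0.22, adjusted p 0.00206). Pcp2, a Purkinje cell gene, was at -0.39 and -0.90 (adjusted p 0.00653), Kel, a red cell surface protease, at -0.27 and -0.95 (adjusted p 0.0192), and the sulfotransferase Chst13 at -0.96 and -0.26 (adjusted p 0.0206). The clone A430106A12Rik was at -0.36 and -0.85 (adjusted p 0.00756). Kel and Chst13 each had a large value on only a single array.

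**Figure D5:**
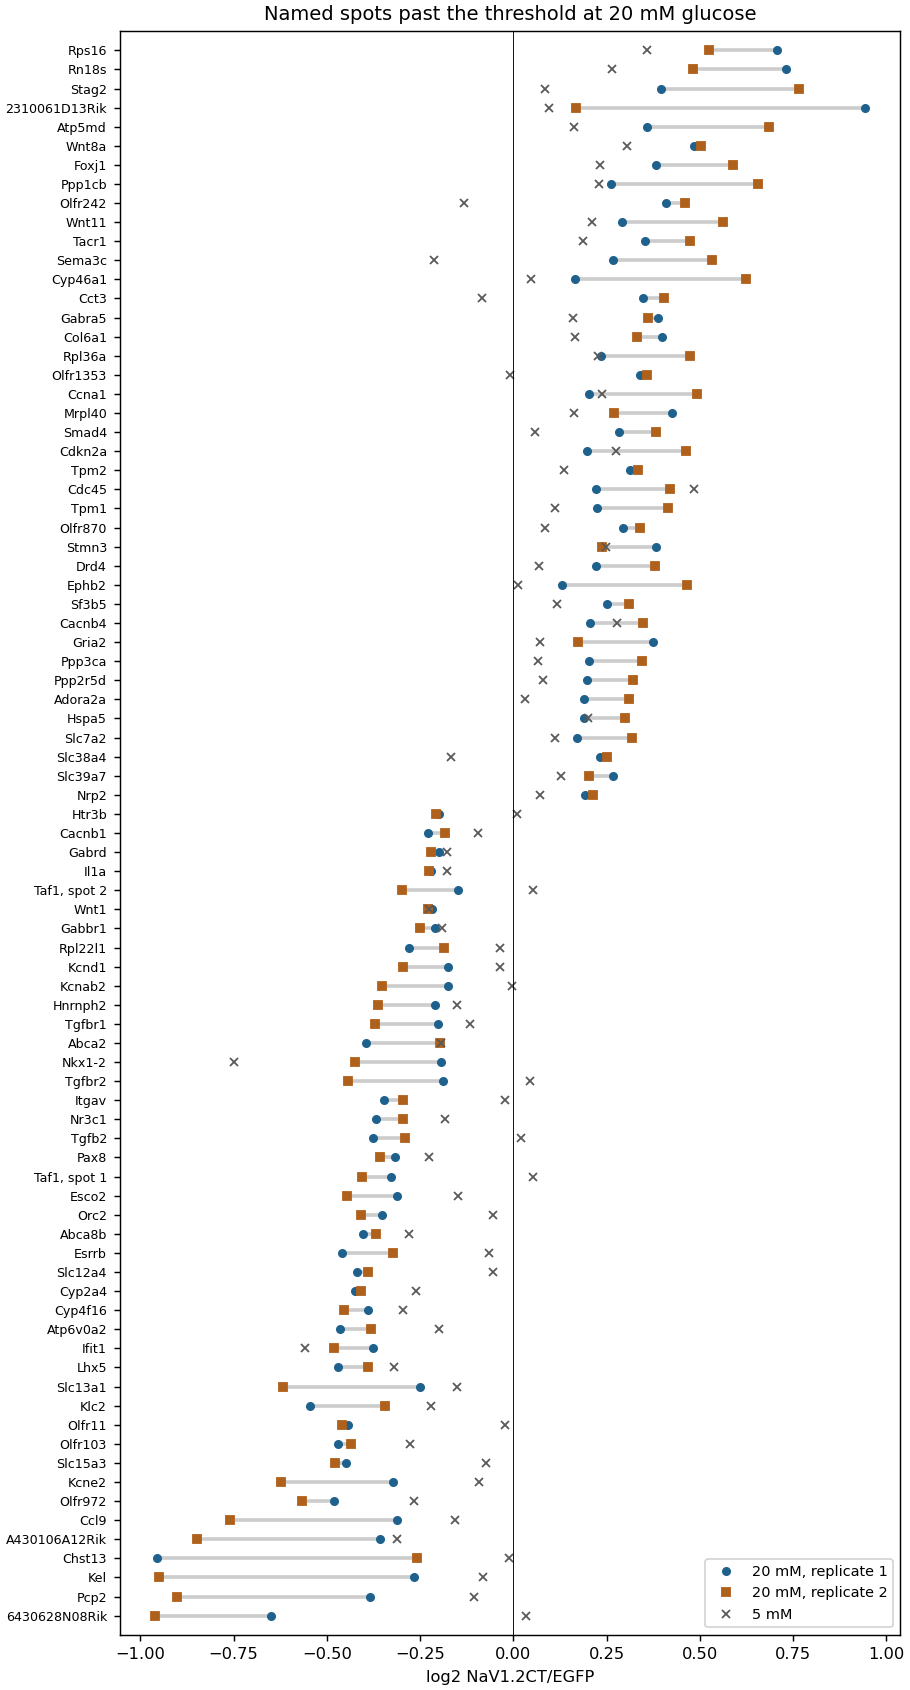
Log2 ratio of NaV1.2CT over EGFP at 83 named spots that passed at 20 mM glucose, on replicate 1 (circles), replicate 2 (squares) and the low glucose array (crosses). Both high glucose values of each spot lie on the same side of 0, which passing the test requires. Most crosses lie nearer to 0 than the other symbols.

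Different spots of a gene shared neither their log2 ratios nor their brightness. Over 1688 pairs of spots with different accessions, from 940 genes, the sign was the same in 51.2%, with a Pearson correlation of 0.04, and the brightness had a Spearman correlation of 0.02. Gene and family names are those the files give to each spot, and whether each name belongs to its spot was not tested. In 144 pairs at least 1 spot passed, and in 2 pairs both did in the same direction. These were the Taf1 pair above and a pair named Siglec1.

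The low glucose array was not used to choose the spots and gives a separate reading of them, though on the same dye orientation and print layout. Of the spots that passed higher at 20 mM, 87.1% were above 0 at 5 mM, and of those that passed lower, 16.9% were, against 50.5% of all kept spots. The median at 5 mM was 0.13 for the former and -0.12 for the latter. A direct test of low minus high glucose called 92 of 19826 spots (0.464%), 52 higher and 40 lower at 5 mM, and 1371 had an unadjusted p under 0.05. In 72 of the 92 the spot was under the limit of the empty spots on the low glucose array, and 47 of the 92 lay in a single print block of the 48. The spread at 5 mM, with 1 array, is assumed and not measured. Of the 912 spots, 19 were among the 92.

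Each list of cell type markers was short, and of all kept spots 4.6% passed. Of 24 neuroblastoma spots, the receptor kinase Ret passed higher, at 0.19 and 0.30 (adjusted p 0.0280). Of 10 fibroblast spots, Pdgfra at 0.33 and 0.46 (adjusted p 0.00527) and Fap at 0.25 and 0.27 (adjusted p 0.0179) passed higher, both dim, and a second Pdgfra spot was at 0.02 and 0.21. Of 9 glial spots, 1 of 2 spots of Gfap passed, at 0.17 and 0.29 (adjusted p 0.0374). None of the 5 blood or 5 liver and muscle spots passed. The raw minus background intensity summed over the fibroblast list was 28790 in the EGFP and 24343 in the NaV1.2CT channel on replicate 1, and 25953 and 22398 on replicate 2, while the median of all kept spots also was lower in the NaV1.2CT channel. The neuroblastoma list summed to 140936 and 152806 on replicate 1 and to 145999 and 155481 on replicate 2. The glial list summed to 64090 and 68123, and to 58709 and 62036. These sums are not normalized and weigh the brightest spots most. After normalization the median log2 ratios on replicates 1 and 2 were -0.0045 and 0.043 for the neuroblastoma list. They were 0.0053 and 0.055 for the fibroblast list, and 0.010 and 0.037 for the glial list. The part of these cells in the family results was not tested.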

How the data were processed

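Each array compared 2 RNAs on a spotted mouse array, and the deposited intensity columns are raw and background brightness per spot and channel, per the file headers. The authors' deposited score is a z-score per spot, used only for its sign; the sources used here do not say how it was made. Log2 of raw minus background, NaV1.2CT over EGFP, was normalized by loess within each of 48 print blocks (span 0.3, empty spots at weight 0), and a loess on intensity (span 0.4) over the kept gene spots was subtracted per array. GAPDH and empty spots stayed out of the tests. limma 3.58.1 in R 4.3.3 (lmFit, eBayes, two-sided) tested the mean of the 2 arrays against 0, with 1 residual degree of freedom and a prior of 9.23, and Benjamini-Hochberg adjustment over all 19836 spots at 0.05. Low minus high glucose was tested over the 3 arrays, taking the lone low glucose array to vary like the others. Different spots of a gene were kept apart. The test was also run on simulated spots whose noise was independent between the arrays. These held no effect of print position or dye, so calls that come from such effects were not covered. Symbols were updated through a mouse gene table of the assembly GRCm38.p6, used for names only: 14216 gene spots had a current symbol, 2117 an older one, 96 were matched by accession, 2151 kept the file's symbol and 3185 had none. No reference genome or probe sequence was used here, so no position in the genome is given.

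Families are 66 patterns of gene symbols, 2 of them for unnamed clones. The genes named were, in each family with at least 10 kept spots, up to 3 passing spots of the largest change in each direction, or otherwise the highest and lowest spot of the same sign on both arrays; the 5 highest and 5 lowest of all; their other spots; and Scn2a. The text gives a part of these. Families, gene lists and tests were chosen with earlier results of these data known. The print positions were subtracted after the data were examined. For single spots and counts of passing spots, the median of all kept spots at the position was subtracted. Family medians under this alternative are median differences from other genes at the same positions. The low glucose array carries another slide series number than the others, so that glucose and slide series cannot be told apart. Some items withheld from this text are not reported here.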

Additional observations from a re-analysis of the deposited data

Results flagged for a closer look

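Effects of NaV1.2CT that differed between the glucose levels were tested directly by low minus high glucose. With 1 low glucose array, this test assumes that the array varies like the others. It called 92 spots, of which 47 lay in 1 print block and 20 were above the limit of the empty spots on the low glucose array. Among the spots named in the results, 6430628N08Rik differed by 0.84 on the log2 scale, with -0.65 and -0.96 on the high glucose arrays and 0.03 on the low glucose array (limma adjusted p 0.0117). The spot of the olfactory receptor Olfr242 differed by -0.57, with 0.41 and 0.46 at high glucose and -0.13 at low glucose, where it was under the limit of the empty spots (adjusted p 0.0193). With 2 arrays at 20 mM and 1 at 5 mM, no group was large enough to test a single array as an outlier.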

How the results depend on the processing

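The number of passing spots, 372 higher and 540 lower, depended on the normalization and the filter. It was 708 and 982 with normexp background correction, 3332 and 4117 with loess over the whole array, 4667 and 4973 with median centring, 740 and 1018 with the authors' net intensities, and 8 and 22 with no filter on dim spots, where 0 of the 912 passed. Higher spots made up 40.8% of the calls, and 26.7% with no filter. Under the other alternatives the number lay between 252 and 482 higher and between 373 and 800 lower. The low minus high difference, at 92, was 47 with normexp, 306 with median centring, 144 with the authors' net intensities and 21 with no filter. With print position medians subtracted, chosen after the data were examined, 343 and 522 passed, which held 252 of the higher and 418 of the lower spots, and 15 named spots no longer passed. Leaving out either high glucose array leaves the other as a value with no test. No paired analysis was possible because each array holds both RNAs and the glucose levels share fewer than 2 replicate numbers. Some log2 ratios changed sign. With normexp the other Gabbr1 spot was at -0.0017. With loess over the whole array the other spots of named genes were at -0.19 for Cacnb4, -0.072 for Stag2, -0.048 for Nr3c1, -0.087 for Kcnd1, 0.070 for Nkx1-2, 0.094 for Cct3, 0.054 for Taf1 and 0.097 for Slc38a4. With median centring, spots that had passed were at -0.22 for Cacnb4, -0.071 for Tacr1, -0.019 for Adora2a, -0.033 for Smad4, -0.027 for Col6a1, -0.078 for Sema3c, -0.17 for Cdkn2a and -0.15 for Slc7a2, and those of Cacnb4 and Cdkn2a passed as lower. Spots that had not passed before were at -0.032 for Scn4a, -0.11 for Cacnb4, 0.036 for Atp5md, -0.10 for Kcnd1, -0.014 for Hspa5, -0.12 for Nrp2, -0.19 for Gabbr1, 0.032 for Itgav, 0.025 for Cct3 and 0.011 for Taf1. With position medians subtracted, Cdc45 was at -0.018, and the other spots at 0.042 for Ppp2r5d, 0.025 for Nkx1-2 and -0.00064 for Gabbr1. The median changed sign under at least 1 alternative in 45 of 64 families. The cause of these changes was not tested. About 50.3% of the higher and 49.8% of the lower spots were dim, near the limit of the empty spots.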

Other observations

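A few spots chosen after their values were seen differed widely between the 2 arrays. The clones 4930422I22Rik, at 1.17 and 0.10, and 2310061D13Rik, at 0.94 and 0.17, sit side by side in the same print row and were high on replicate 1 only. Tab1, which encodes a binding partner of the kinase TAK1, was at -0.08 and -1.28. The authors' deposited z-score was present on both arrays for 95 of the 372 higher and 154 of the 540 lower spots. Of these 95 higher spots, 90 (94.7%) scored above 0 on both, and of the 154 lower spots 154 (100%) scored below 0 on both. Over the 12920 kept spots with a score, 32.6% scored above 0 on both arrays and 31.9% below. The score was deposited with the same 2 arrays that chose the passing spots, so it is no independent reading of their sign.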
